A study of Mus musculus with 17 samples.

Results

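Among 12 mouse mammary tumours, 4 carried Met RNA at a level above 13 on the log2 scale of the arrays and 8 did not. These 4, called Met-high here, are compared with the other 8 across the genome, with the genes that lie next to Met on chromosome 6 set apart. They were chosen by the measured Met level itself, so the levels of Met and of its neighbour Capza2, a further marker of these tumours, describe the groups and are not tested. The series held 17 arrays in all, 1 per sample, of which 5 were of normal mammary tissue. Every mouse had a mixed strain background.

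By label, 9 tumours were deleted for Rb1, the retinoblastoma gene, and for Trp53, which encodes p53 (called Rb/p53), and 3 were deleted for p53 only. Deletion was made by Cre recombinase, driven by the promoter of mouse mammary tumour virus (MMTV-Cre) in 7 Rb/p53 and in all 3 p53 tumours and given by an adenovirus (Ad-Cre) in 2 Rb/p53 tumours. The titles of the 5 samples of normal tissue name Rb/p53 as well. The Met-high tumours were Rb/p53 MMTV-Cre replicate 2, from a parous mouse, Rb/p53 Ad-Cre replicate 2, a transplant, and p53 MMTV-Cre replicates 1 and 3. The other 8 were Rb/p53 MMTV-Cre replicate 1, from a nulliparous mouse, Rb/p53 MMTV-Cre replicates 3 to 7 and Rb/p53 Ad-Cre replicate 1, all 6 of them transplants, and p53 MMTV-Cre replicate 2. So 1 of 4 Met-high tumours and 6 of 8 others were transplants, and the p53 tumours made up 2 of 4 and 1 of 8. The labels of p53 replicate 3 disagree: Rb/p53 stands in its title and p53 in all its other labels, and it was kept as p53. The tumours are labelled as independent, and p-values cover only the spread among the samples at hand.

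The array of p53 replicate 2 stood apart from the others. It correlated with the other tumours at r = 0.888 to 0.915 over all probe sets, whereas all other pairs of tumours reached 0.959 to 0.985. Results are therefore given over all 12 tumours and over the 11 without it. Rb1 was at 9.40 and 9.84 in the Met-high Rb/p53 tumours, at 9.93 and 10.27 in the Met-high p53 tumours and at 9.29 to 9.92 in the others without p53 replicate 2. The luminal and epithelial markers had a mean level of 7.80 to 9.15 in Met-high tumours and 7.91 to 9.39 in the others, below the 10.17 to 10.33 of normal tissue.

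Met encodes the receptor tyrosine kinase for hepatocyte growth factor, HGF, a ligand that stromal cells secrete as an inactive precursor and that serine proteases activate. Bound to HGF, the receptor recruits adaptors such as GAB1 and GRB2 and turns on the ERK and phosphatidylinositol kinase pathways, which drive growth, motility and branching of epithelia. In tumours the receptor can be raised by amplification of its locus, in which case neighbouring genes can be raised with it. Copy number was not measured here.

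Met was at 13.60 in Rb/p53 Ad-Cre replicate 2, 13.39 in p53 replicate 1, 13.36 in Rb/p53 MMTV-Cre replicate 2 and 13.26 in p53 replicate 3. In the other 8 tumours its lowest level was 6.82, the median 10.90 and the highest 11.91. The levels fell into separate groups: p53 replicate 3 was the lowest tumour above the threshold and Rb/p53 MMTV-Cre replicate 5 the highest below it, with no tumour between. The mean was 13.40 ± 0.14 (SD, n = 4) against 10.59 ± 1.59 (SD, n = 8). Without p53 replicate 2, which held the lowest level, the others were at 11.13 ± 0.48 (SD, n = 7), above the 9.88 ± 0.15 (SD, n = 5) of normal tissue. A low Met level in that tumour can stand for fewer cells with Met or for less RNA per cell, which bulk arrays cannot tell apart.

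Capza2, the next measured gene beyond Met, encodes a subunit of the actin capping protein. It was at 13.60 in Rb/p53 Ad-Cre replicate 2, 13.54 in p53 replicate 1 and in Rb/p53 MMTV-Cre replicate 2, and 13.42 in p53 replicate 3. The other 8 tumours had a lowest level of 11.69, a median of 12.03 and a highest of 12.37, and normal tissue lay between 11.48 and 11.80. The same 4 tumours were thus set apart by Capza2, and p53 replicate 2 with 12.06 was within the range of the other tumours for it, unlike for Met.

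**Figure D1:**
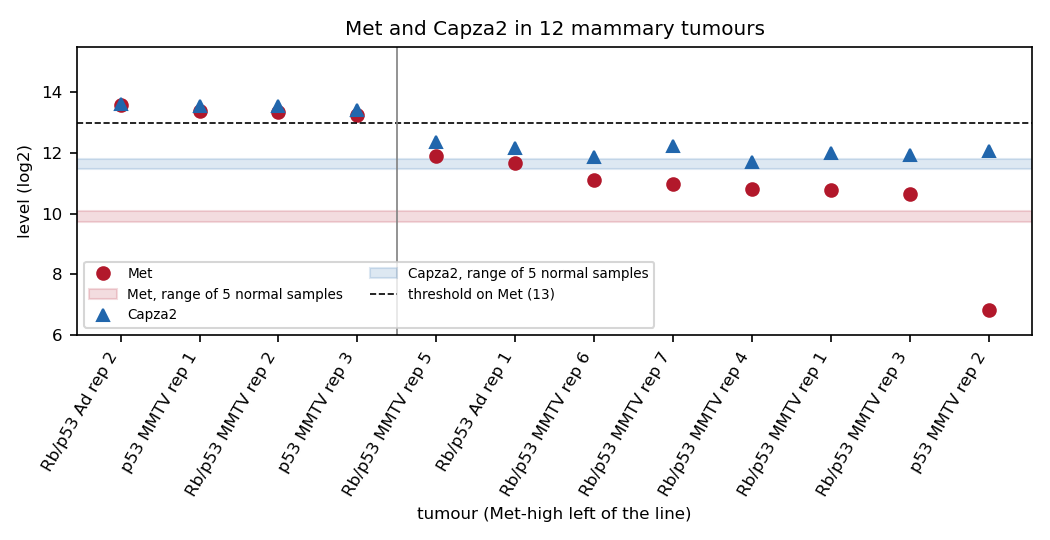
Levels of Met (circles) and Capza2 (triangles) on the log2 scale in each of 12 tumours, ordered by Met; the dashed line is the threshold of 13 on Met and bands span the 5 normal samples. The 4 tumours left of the line lie at 13.26 to 13.60 for Met and 13.42 to 13.60 for Capza2, and the other 8 reach at most 11.91 and 12.37.

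The 20 measured genes on each side of Met were followed next, in chromosome order. They adjoin the gene that set the groups, so they are kept out of every count of other genes. Of the 39 left after Capza2 is set aside, 1 rose over all 12 tumours, Wnt2, and none fell (limma, adjusted p below 0.05), where 0.0603% of the 19897 genes outside this stretch were called higher. At an unadjusted p below 0.05, 13 of the 39 were higher and 1 was lower, where 4.12% and 3.08% of the genes outside were. The median difference, Met-high minus other, was 0.28 over the 39 and -0.04 over all genes. Without p53 replicate 2, Wnt2 and St7 rose, against 0.0804% of the genes outside, and the medians were 0.16 and -0.03.

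Wnt2, a secreted WNT ligand, was at 10.36 in Rb/p53 MMTV-Cre replicate 2, 9.66 in Rb/p53 Ad-Cre replicate 2, 9.30 in p53 replicate 1 and 8.56 in p53 replicate 3. The other 8 tumours were at 7.24 at the lowest, 7.34 at the median and 7.82 at the highest. All 4 Met-high tumours lay above all others, but normal tissue, at 8.87 to 9.49, lay within their range. The difference was 2.02 ± 0.26 (log2, SE; limma adjusted p = 0.0143). The call was lost with the transplant label as a term (1.93, adjusted p = 0.0994) and without Rb/p53 Ad-Cre replicate 2 (1.95, adjusted p = 0.0822).

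St7, a gene first studied as a candidate tumour suppressor, was at 11.43, 11.34 and 11.11 in p53 replicate 1, Rb/p53 MMTV-Cre replicate 2 and p53 replicate 3, and at 9.42 in Rb/p53 Ad-Cre replicate 2. The other 8 tumours had a lowest level of 8.45, a median of 8.60 and a highest of 9.55, the last of these in p53 replicate 2. That tumour overlapped the lowest Met-high tumour, and over all 12 the difference of 2.07 ± 0.34 had an adjusted p of 0.0514. Without it St7 rose by 2.18 ± 0.32 (limma adjusted p = 0.0351), a call lost with the transplant label as a term (1.69, adjusted p = 0.244) or genotype (1.74, adjusted p = 0.0999). Without p53 replicate 2 both p53 tumours were Met-high, so with the genotype term the difference is that among Rb/p53 tumours, 2 against 7. The call was also lost with any 1 further tumour left out other than Rb/p53 MMTV-Cre replicate 6 or Rb/p53 Ad-Cre replicate 2 (adjusted p = 0.0591 to 0.107).

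Further genes around Met were highest in the same 3 tumours. Lsm8, which encodes a protein of the spliceosomal RNA-binding complex, was at 13.23, 12.89 and 13.03 in Rb/p53 MMTV-Cre replicate 2, p53 replicate 1 and p53 replicate 3, and at 11.60 in Rb/p53 Ad-Cre replicate 2. The other tumours reached 11.43, so all 4 lay above them, although the difference of 1.90 ± 0.43 did not pass (adjusted p = 0.296). Cav2, a caveolin that coats membrane pits, was at 12.74, 12.82 and 12.16 in those 3 tumours and at 9.87 in Rb/p53 Ad-Cre replicate 2, which was inside the 8.12 to 10.67 of the others.

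Cav1, the main caveolin, was at 13.40, 13.35 and 13.37 in those 3 tumours and at 11.23 in Rb/p53 Ad-Cre replicate 2, while the others spanned 9.89 to 12.63. Cftr, an epithelial chloride channel, was at 8.38, 8.58 and 9.35 against 6.84 in Rb/p53 Ad-Cre replicate 2 and 6.34 to 6.96 in the others. Tes, which encodes the focal adhesion protein testin, was at 13.55 and 13.16 in the p53 tumours, but at 10.80 and 10.87 in the Rb/p53 tumours, within the range of the others, whose lowest level was 9.21 and median 9.68. None of these 3 passed the test over 12 tumours (Cav1 0.85 ± 0.52, Cftr 1.74 ± 0.34 and Tes 2.16 ± 0.53, limma adjusted p = 0.703, 0.150 and 0.409). Without Rb/p53 Ad-Cre replicate 2, Cftr and St7 were called, at 2.22 and 2.54 (limma adjusted p = 0.00142 for both). Without p53 replicate 2 as well, Cav1, Cav2, Lsm8 and Ankrd7 were also called, at 1.09, 2.48, 2.01 and 1.75 (limma adjusted p = 0.00244 to 0.0253). Of the more distant neighbours, Foxp2, Kcnd2, Ing3 and Wnt16 differed by -0.18, -0.03, 0.12 and -0.04. Tspan12 was 1.34, 1.60 and 1.15 above the median of the 8 others in Rb/p53 MMTV-Cre replicate 2, Rb/p53 Ad-Cre replicate 2 and p53 replicate 3. In p53 replicate 1 its level differed from that median by -0.05.

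The stretch of genes above the highest of the 8 other tumours differed between the Met-high tumours, a measure chosen after the values were seen. Counted outward from Met without a gap, it ran from Cav2 to Ankrd7 in Rb/p53 MMTV-Cre replicate 2 (11 genes), from Tes to Ankrd7 in p53 replicate 1 (13 genes) and from Tes to Wnt2 in p53 replicate 3 (8 genes). In Rb/p53 Ad-Cre replicate 2 it held Met and Capza2 only. Over all 40 neighbours of Met, 12, 14, 14 and 8 genes were above the highest other tumour in these 4 tumours, in the order just given. Of the genes outside, 10.1%, 9.85%, 8.11% and 11.2% were above it in the same tumours. The ends of the stretch depend in part on p53 replicate 2, which held the highest St7 (9.55) and Asz1 (6.11) levels of the 8 others. St7 ended the stretch in Rb/p53 Ad-Cre replicate 2, where its level of 9.42 was above those of the 7 others. Asz1 ended it in p53 replicate 3, and the stretch was not measured without p53 replicate 2. Some genes further away were above the highest other tumour in only part of the Met-high tumours. The receptor phosphatase gene Ptprz1 was at 11.06 in Rb/p53 Ad-Cre replicate 2, against at most 7.12 in the 8 others. Ptprz1 was above that level in p53 replicate 3 as well, by less. Aass was above the 8 others in both Rb/p53 Met-high tumours, and Tspan12 in all Met-high tumours except p53 replicate 1.

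**Figure D2:**
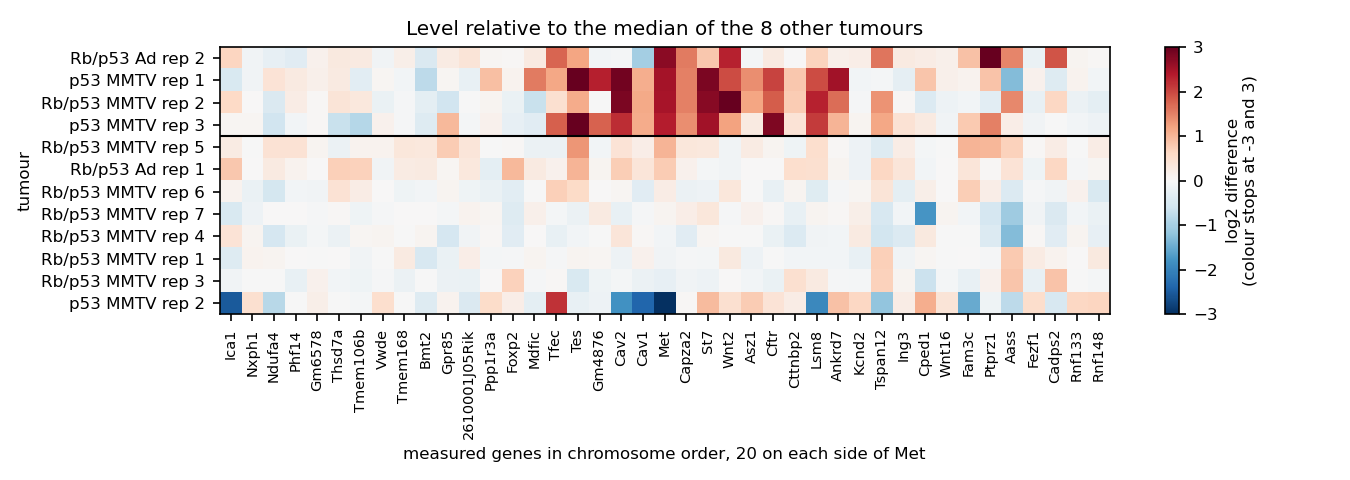
Colour gives the level of each measured gene, 20 on each side of Met in chromosome order, minus the median of the 8 other tumours (log2); rows are tumours, with the 4 Met-high tumours above the line. Taken as genes above all 8 others, p53 replicate 2 among them, the raised block spans 13, 11 and 8 genes in p53 replicate 1, Rb/p53 MMTV-Cre replicate 2 and p53 replicate 3. In Rb/p53 Ad-Cre replicate 2 it spans Met with Capza2.

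Away from Met, 12 of 19897 genes rose in Met-high tumours (0.0603%) and 1 fell (0.00503%) over all 12 tumours, 13 in all or 0.0653% (limma, adjusted p below 0.05). Prl2c5, a gene of the proliferin family of placental hormones, had the largest rise, and the rest included the WNT ligand gene Wnt7b, the citrullinating enzyme gene Padi4 and the cytokine gene Csf2. The fall was that of Mgp, the gene of matrix Gla protein, an inhibitor of calcification. At an unadjusted p below 0.05, 819 genes were higher (4.12%) and 612 lower (3.08%). All 4 Met-high tumours lay above all 8 others for 115 genes (0.578%) and below them for 135 (0.678%). Without p53 replicate 2, 16 genes rose (0.0804%) and 8 fell (0.0402%), 24 in all or 0.121%. Of these, 11 of the rises and the fall of Mgp were shared with the fit over 12 tumours. At an unadjusted p below 0.05 the counts were then 1137 higher (5.71%) and 1399 lower (7.03%), and 201 genes (1.01%) had all Met-high tumours above all 7 others and 268 (1.35%) below.

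Prl2c5 was at 11.80 in p53 replicate 1, 11.53 in Rb/p53 MMTV-Cre replicate 2, 10.27 in Rb/p53 Ad-Cre replicate 2 and 10.03 in p53 replicate 3. In the other 8 tumours it was at 5.55 at the lowest, 6.46 at the median and 7.67 at the highest, and in normal tissue at 5.76 to 5.98. The groups were far apart, and the rise was 4.32 ± 0.44 (log2, SE; limma adjusted p = 0.00287), or 4.30 ± 0.47 without p53 replicate 2 (adjusted p = 0.00673). Proliferin genes are near-identical copies, so which of them the probe set read is uncertain. A further probe set that lists several proliferin genes was at 9.97 to 11.84 in Met-high tumours, 4.39 to 7.73 in the others and 3.86 to 4.78 in normal tissue.

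Among genes of secreted signals, Wnt7b was at 10.43 in p53 replicate 3, 10.05 in p53 replicate 1, 9.75 in Rb/p53 Ad-Cre replicate 2 and 9.07 in Rb/p53 MMTV-Cre replicate 2. The other tumours were at 7.76 to 8.72 with a median of 8.11, so the groups did not overlap, and normal tissue was at 7.64 to 7.99. The rise was 1.69 ± 0.24 (limma adjusted p = 0.0295), and it was called in 14 of 28 alternative settings. Csf2, which encodes the myeloid growth factor GM-CSF, was dim: it was at 6.13 to 6.57 in Met-high tumours and 5.37 to 5.77 in the others. It rose by 0.73 ± 0.11 (limma adjusted p = 0.0492). Its levels in the other tumours lay below the lowest 25th percentile of an array, 6.37, so a level above background was not shown there. The lowest Met-high level, 6.13, lay below 6.37 as well.

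Of the genes with other roles, Syt13, a synaptotagmin of membrane traffic, was at 10.38 in p53 replicate 1 and at 9.14 to 9.24 in the other 3 Met-high tumours, against a lowest level of 7.82, a median of 7.92 and a highest of 8.10 in the rest. The 8 others were tightly grouped and the rise was 1.54 ± 0.20 (limma adjusted p = 0.0143). Acap1, a GTPase-activating protein for ARF proteins of endosomes, was at 9.81 and 9.56 in Rb/p53 MMTV-Cre replicate 2 and Rb/p53 Ad-Cre replicate 2 and at 9.08 and 8.61 in p53 replicates 1 and 3. Its highest level among the others, 8.49 in Rb/p53 MMTV-Cre replicate 3, was close to the lowest Met-high tumour, while their median was 7.49. The rise was 1.69 ± 0.25 (limma adjusted p = 0.0461).

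Acsbg1, which activates long-chain fatty acids, was at 10.31 in p53 replicate 3 and 9.28 to 9.61 in the other Met-high tumours. The rest were at 7.61 to 8.83, and Acsbg1 rose by 1.58 ± 0.24 (limma adjusted p = 0.0461). Slc9a2, a sodium and proton exchanger, was at 9.33 in Rb/p53 Ad-Cre replicate 2, 8.92 in p53 replicate 1 and 8.63 in Rb/p53 MMTV-Cre replicate 2. It was lowest in p53 replicate 3, which lay just above the highest other tumour (7.91). Its rise of 1.52 ± 0.24 (limma adjusted p = 0.0492) did not pass without p53 replicate 2 (adjusted p = 0.0553).

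Padi4, which turns arginine in proteins such as histones into citrulline, was at 8.88, 8.78, 8.73 and 8.25 in Rb/p53 MMTV-Cre replicate 2, Rb/p53 Ad-Cre replicate 2, p53 replicate 3 and p53 replicate 1. The others ran from 6.45 to 7.85 with a median of 6.74, and the rise was 1.69 ± 0.26 (limma adjusted p = 0.0492). Rnf183, a RING-type ubiquitin ligase, was at 7.27 to 7.65 in Met-high tumours and 6.31 to 6.85 in the others, with no overlap, and rose by 0.93 ± 0.12 (limma adjusted p = 0.0143). It was dim: its lowest level lay below 6.37, and the filter that left out dim genes removed it. Ppp1r14c, an inhibitor of a protein phosphatase, and Itgb7, an integrin beta subunit known from lymphocytes, rose by 0.83 ± 0.13 and 0.79 ± 0.12 (limma adjusted p = 0.0492 for both). Their levels in Met-high tumours were 7.66 to 8.35 and 7.90 to 8.45. In the other tumours Ppp1r14c reached 7.39 and Itgb7 7.72.

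**Figure D3:**
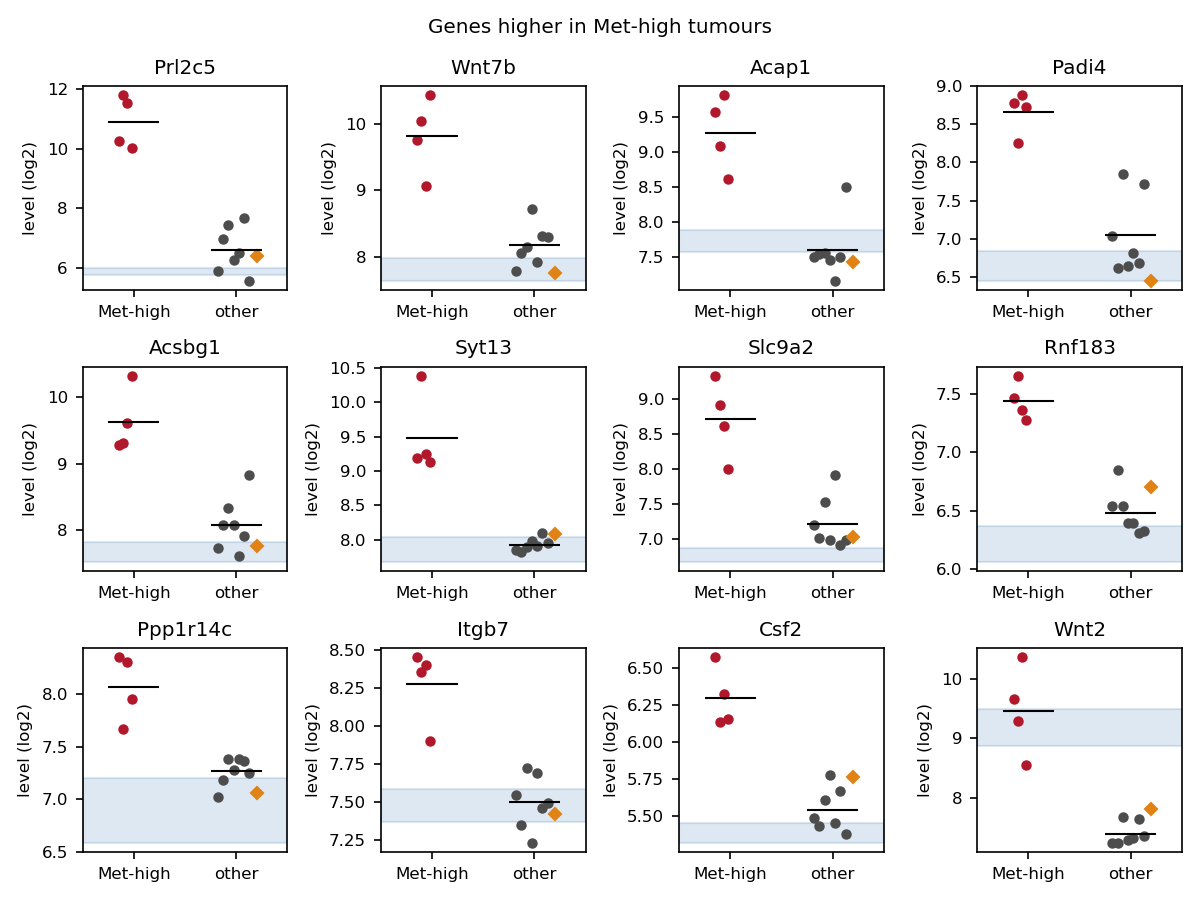
Level (log2) of 12 genes, among them Wnt2 next to Met, in 4 Met-high and 8 other tumours; each point is a tumour, the diamond is p53 MMTV-Cre replicate 2, lines are means of the 4 and of the 7 others without the diamond, and the band spans 5 normal samples. In all 12 panels the lowest Met-high tumour lies above the highest other tumour.

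Without p53 replicate 2 these genes were joined by 5 others. Galnt6, which starts O-linked sugar chains on mucins, was at 7.78 to 8.20 in Met-high tumours and 7.15 to 7.45 in the 7 others (0.62 ± 0.09, limma adjusted p = 0.0331). Arhgap26, Gpr141b, an orphan receptor gene, and Eepd1 rose by 0.78 ± 0.12, 0.81 ± 0.12 and 0.59 ± 0.09. For all 4 of these genes p53 replicate 2 had the highest level of any tumour, 8.83, 10.52, 8.32 and 10.17 in the order named, so over 12 tumours none passed (adjusted p = 0.703 to 0.777). Meiob, a meiosis gene, rose by 1.02 ± 0.17 but stayed at 5.98 or less in every tumour, where a level above background was not shown.

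Promoter sequences were searched for the AP-1 motif TGANTCA, which reads the same on both strands and is bound by FOS and JUN factors downstream of ERK. The window was the 250 bases before each RefSeq gene start on GRCm38.p6, and 6.75% of all 32851 such windows held the motif. Met held it, and so did 2 of the 17 called genes outside the stretch around Met that had a window, Padi4 and Rnf183, which is 2 of 23 windows or 8.70%. These 3 are shown since they are the high genes that hold it, with the motif in capitals. The windows are chr6:17463707-17463956 on the plus strand for Met, chr4:140774204-140774453 on the minus strand for Padi4 and chr4:62434641-62434890 on the minus strand for Rnf183, each printed in the direction of its gene.
Met: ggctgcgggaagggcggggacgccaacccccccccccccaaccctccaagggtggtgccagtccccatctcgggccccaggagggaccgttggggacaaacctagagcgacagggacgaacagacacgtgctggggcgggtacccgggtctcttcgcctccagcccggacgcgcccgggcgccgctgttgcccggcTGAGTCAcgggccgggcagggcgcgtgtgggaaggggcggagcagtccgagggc
Padi4: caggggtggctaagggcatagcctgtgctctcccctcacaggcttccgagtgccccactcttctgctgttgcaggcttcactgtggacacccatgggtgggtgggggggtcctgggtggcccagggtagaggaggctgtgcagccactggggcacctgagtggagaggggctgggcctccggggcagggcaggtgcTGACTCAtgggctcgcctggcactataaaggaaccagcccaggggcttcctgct
Rnf183: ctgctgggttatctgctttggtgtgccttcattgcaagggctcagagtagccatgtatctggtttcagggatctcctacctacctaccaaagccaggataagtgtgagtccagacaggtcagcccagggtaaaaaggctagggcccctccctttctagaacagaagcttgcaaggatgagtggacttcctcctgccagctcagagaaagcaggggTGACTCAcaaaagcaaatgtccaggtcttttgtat
The motif begins 54 bases before the start in Met and Padi4 and 35 bases before it in Rnf183. A match describes letters in a window and no binding was measured.

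Among genes that were lower, Mgp was at 8.78 in Rb/p53 Ad-Cre replicate 2, 9.11 in p53 replicate 3, 9.36 in Rb/p53 MMTV-Cre replicate 2 and 9.41 in p53 replicate 1. The other 8 tumours were at 10.08 at the lowest, 10.59 at the median and 11.20 at the highest, with no overlap, and normal tissue spanned 8.63 to 9.80. Mgp fell by 1.45 ± 0.22 (limma adjusted p = 0.0461), and without p53 replicate 2 it fell by 1.52 ± 0.20 (adjusted p = 0.0224). Over 12 tumours it was the sole gene past the threshold. The next by p were Oxct1 at -0.67, Itgbl1 at -2.60 and Lrig3 at -1.38, followed by Fhl1, Eya4, Sorbs3, S100a7a, Mylip and Zfp939 at -1.91 to -0.41, with adjusted p = 0.0524 to 0.318.

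Without p53 replicate 2, 7 more genes fell, and the largest fall was that of Itgbl1. This gene encodes a secreted protein with integrin-like repeats and was at 7.63, 7.62, 7.46 and 6.95 in Rb/p53 MMTV-Cre replicate 2, p53 replicate 3, Rb/p53 Ad-Cre replicate 2 and p53 replicate 1. The 7 others ran from 8.94 to 10.77 with a median of 10.52. It fell by 2.91 ± 0.31 (limma adjusted p = 0.00651), and p53 replicate 2, at 7.86, lay between the groups.

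Cxcl12, a chemokine made by fibroblasts, was at 8.02 in Rb/p53 MMTV-Cre replicate 2 and 8.86 to 9.02 in the other Met-high tumours, and at 9.62 to 11.46 in the 7 others. It fell by 2.21 ± 0.33 (limma adjusted p = 0.0354), and p53 replicate 2 had the lowest level of all, 7.83. Medag, a gene named for a role in adipogenesis, was at 9.74 to 10.39 against 11.40 to 12.42 and fell by 1.59 ± 0.20, with p53 replicate 2 at 8.42. Lrig3, a leucine-rich repeat membrane protein, was at 7.72 to 8.33 against 9.13 to 10.13, fell by 1.56 ± 0.19, and stood at 8.11 in p53 replicate 2.

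The collagen-modifying enzyme gene P3h3 fell by 1.02 ± 0.14 and the planar polarity gene Prickle2 fell by 0.95 ± 0.15. Both were at least as low in p53 replicate 2 as in most Met-high tumours, at 8.96 and 7.06. Oxct1, an enzyme of ketone body use, was at 9.77 to 9.87 in Met-high tumours and 10.20 to 10.74 in the 7 others, and p53 replicate 2 was among the latter at 10.39. It fell by 0.68 ± 0.11 (limma adjusted p = 0.0444). Id3, an inhibitor of helix-loop-helix factors, and Msrb3, a methionine sulfoxide reductase, differed by -1.43 ± 0.24 and -1.12 ± 0.19 and did not pass (adjusted p = 0.0553 and 0.0537).

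**Figure D4:**
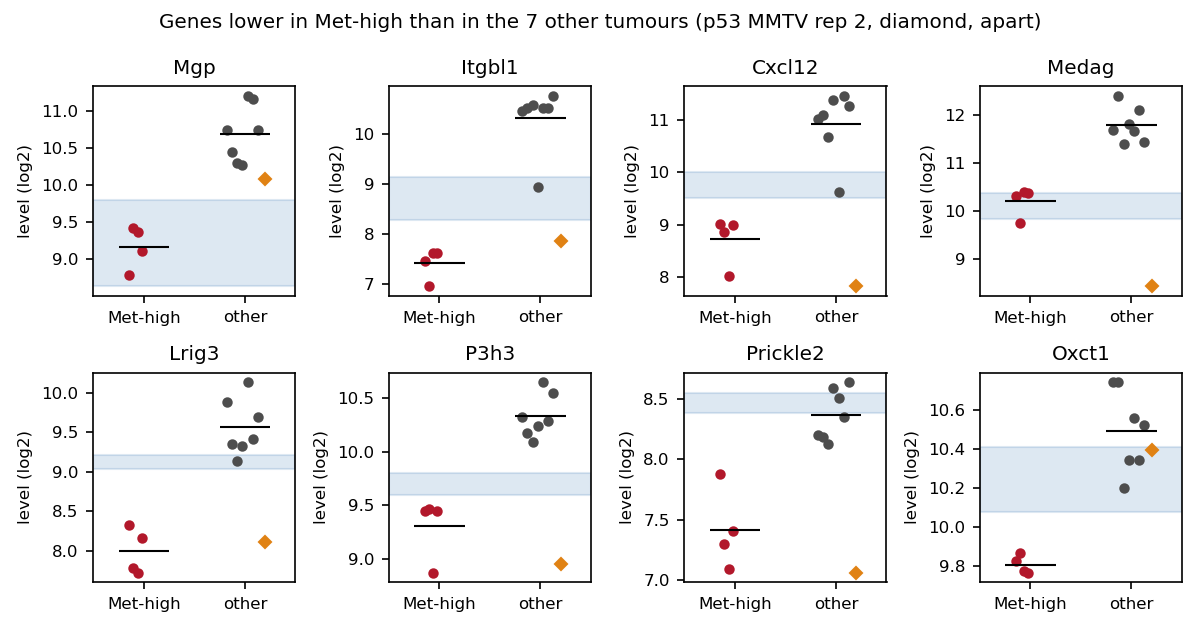
Level (log2) of the 8 genes called lower without p53 MMTV-Cre replicate 2, which is the diamond; points are tumours, lines are means of the 4 Met-high and the 7 other tumours, and the band spans 5 normal samples. The 4 Met-high tumours lie below the 7 others in each panel, and the diamond lies with the 7 others for Oxct1 and close below them for Mgp.

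Ligand and receptor partners of MET were taken from a list of 25 measured genes, and 0 passed in either fit. At an unadjusted p below 0.05 by limma, 4 were higher and 1 lower over 12 tumours (4.12% and 3.08% of all genes). The median difference was 0.05, against -0.04 over all genes. Hgf, the ligand, was at 7.94, 8.28, 9.01 and 9.26 in Rb/p53 MMTV-Cre replicate 2, p53 replicate 3, p53 replicate 1 and Rb/p53 Ad-Cre replicate 2. The others ran from 8.41 to 11.64 with a median of 10.42, so the groups overlapped, and the difference of -1.63 ± 0.57 did not pass (adjusted p = 0.629; 0.174 without p53 replicate 2). Itga6, an integrin partner of MET, differed by 0.92 ± 0.31 and Cd44, a co-receptor, by 0.55 ± 0.18 (adjusted p = 0.611 and 0.600).

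Of 28 measured adaptors and kinases of MET signalling none passed in either limma fit, with 0 in each direction at an unadjusted p below 0.05 over 12 tumours, and the median difference was 0.00. Without p53 replicate 2, 3 were lower and 0 higher at that unadjusted level. Of all genes, 7.03% were lower and 5.71% higher there, and 3.08% and 4.12% over 12 tumours. The largest differences over 12 tumours were those of the kinase gene Src at 0.48 ± 0.24 and the ubiquitin ligase gene Cblb at -0.47 ± 0.24.

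Of 25 feedback and target genes of ERK, 22 had a positive difference over 12 tumours, as had 41.7% of all genes outside the stretch around Met, and the median was 0.36 over 12 and 0.23 over 11 tumours. None passed in either fit. At an unadjusted p below 0.05 by limma, 4 were higher and 0 lower over 12 tumours (4.12% and 3.08% of all genes), and 3 were higher and 2 lower over 11 (5.71% and 7.03%). Ereg, an EGF receptor ligand, was at 12.12 and 10.08 in the Rb/p53 Met-high tumours and at 8.54 and 8.70 in the p53 tumours, within the 6.69 to 11.26 of the others. Ccnd1, cyclin D1, was at 12.45 to 13.31 in Met-high tumours and 10.39 to 12.68 in the others, a difference of 0.99 ± 0.37 (limma adjusted p = 0.629). Part of the list's median went with p53 replicate 2, in which the list's mean level was 8.55, against 9.38 to 10.09 in the 7 others and 9.70 to 10.36 in Met-high tumours.

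Cell division genes were likewise low in p53 replicate 2. All 21 measured mitosis genes had a positive difference over 12 tumours, as had 41.7% of all genes, with a median of 0.48, which was 0.24 without that tumour. None passed in either fit. At an unadjusted p below 0.05 by limma 2 were higher over 12 tumours and 4 over 11, against 4.12% and 5.71% of all genes, and 0 were lower. Their mean level was 8.26 in p53 replicate 2, 9.84 to 10.56 in the 7 others and 10.27 to 10.71 in Met-high tumours. The kinetochore gene Ndc80 was at 9.09 to 9.57 in Met-high tumours and 8.54 to 9.04 in the 7 others, without overlap, and differed by 0.54 ± 0.13 there (adjusted p = 0.148). Of 26 E2F targets and DNA replication genes the median was 0.07 over 12 and -0.19 over 11 tumours, and none passed. Over 12 tumours 1 was higher and 0 lower at an unadjusted p below 0.05 by limma, against 4.12% and 3.08% of all genes.

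Yap1, the growth regulator of the Hippo pathway, was at 10.16 to 10.74 in Met-high tumours. In the others it was at 8.08 at the lowest, 10.29 at the median and 13.51 at the highest. The high levels were thus all among the other tumours, and the difference was -0.53 ± 0.86 (limma adjusted p = 0.849).

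Markers of tumour and stromal cell types were measured in the same tumours, and no marker of any list below passed in either fit. Of 25 luminal and epithelial markers 3 were higher and 0 lower at an unadjusted p below 0.05 by limma over 12 tumours. Of all genes, 4.12% and 3.08% were, and the median difference of the markers was 0.08. Cd24a, a surface marker of mammary epithelium, was at 11.60 to 12.91 in Met-high tumours and 8.96 to 12.15 in the others, with overlap (1.75 ± 0.55, adjusted p = 0.593). Elf5, a factor of the alveolar lineage, was at 9.53 and 9.05 in the Rb/p53 Met-high tumours, but at 6.51 and 7.84 in the p53 tumours, against 6.64 to 7.70 in the others. Medians were -0.03 for 18 basal markers, of which the laminin gene Lamb3 differed by 0.96 ± 0.36, and -0.03 for 21 markers of mesenchymal transition. Of the latter 8 were positive over 12 tumours, and the matrix gene Tnc differed by 1.15 ± 0.57. Over the 11 tumours their median was -0.25, with 4 lower and 0 higher at an unadjusted p below 0.05 (7.03% and 5.71% of all genes), among them the transcription factor gene Snai2 at -1.10 ± 0.35 (limma adjusted p = 0.252).

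Of 18 fibroblast and matrix markers, 3 were higher and 0 lower at an unadjusted p below 0.05 by limma over 12 tumours. The shares over all genes were 4.12% and 3.08%. Without p53 replicate 2, 3 were higher and 3 lower, against 5.71% and 7.03% of all genes. The proteoglycan gene Lum differed by 1.79 ± 0.73 and the matrix gene Fbln1 by 1.55 ± 0.51, while Pdgfra, a growth factor receptor of fibroblasts, differed by -1.15 ± 0.53 (limma adjusted p = 0.657, 0.601 and 0.688). The mean level of the list was 10.11 to 11.10 in Met-high tumours and 10.20 to 11.18 in the 7 others, so the ranges overlapped almost wholly. The part of fibroblast content in the falls of Itgbl1, Cxcl12 and Medag was not tested.

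Blood cell markers were high in p53 replicate 2. The mean of 16 macrophage markers was 12.29 there, 10.81 to 11.84 in Met-high tumours and 10.28 to 11.62 in the 7 others. The mean of 14 neutrophil markers was 10.04 there, 7.48 to 8.78 in Met-high tumours and 6.74 to 7.91 in the 7 others. Mrc1, the macrophage mannose receptor gene, was at 11.42 to 12.17 in Met-high tumours and 10.21 to 11.28 in the 7 others, without overlap, and at 13.19 in p53 replicate 2. It differed by 1.00 ± 0.21 without that tumour and did not pass (limma adjusted p = 0.104). Over those 11 tumours 4 of 16 macrophage markers, 4 of 16 T and NK cell markers, 1 of 14 neutrophil and 1 of 9 MHC class II markers were higher at an unadjusted p below 0.05 and 0 lower, where 5.71% and 7.03% of all genes were. The medians there were 0.12, 0.11, 0.37 and 0.53 in the same order, and 0.07, 0.08, 0.07 and 0.29 over 12 tumours.

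Of the lymphocyte markers, Jchain, which joins secreted antibodies, was at 10.66 in Rb/p53 MMTV-Cre replicate 2, 8.29 and 7.17 in p53 replicates 3 and 1 and 5.74 in Rb/p53 Ad-Cre replicate 2, the transplant among them. In the others its lowest level was 5.33, the median 5.55 and the highest 8.71. All 7 transplants were at 5.33 to 5.74 and the 5 tumours without that label at 7.09 to 10.66. Over the list of 13 B and plasma cell markers the median difference was 0.06 and the mean level 7.09 to 7.59 against 7.04 to 7.44. Cd2, a T cell surface gene, was at 6.92 to 7.50 in Met-high tumours and 6.53 to 6.89 in the 7 others, and differed by 0.53 ± 0.11 there (limma adjusted p = 0.0918). The part of these cells in Itgb7, Csf2, Padi4 and Acap1, genes that blood cells also express, was not tested.

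Milk protein genes had a median of 0.74 over 12 and 0.46 over 11 tumours, but Csn2, beta casein, was at 13.94, 13.57, 11.44 and 7.66 in Met-high tumours, a spread wider than its difference of 1.70 between the groups. Medians of the MHC class II, hypoxia and glycolysis, adipocyte, endothelial, skeletal muscle, squamous and interferon lists ran from -0.15 to 0.29 over 12 tumours. In these 7 lists 0 to 1 genes had an unadjusted p below 0.05 by limma, where 4.12% of all genes were higher and 3.08% lower. The prolyl hydroxylase gene Egln3, of the hypoxia list, differed by 1.03 ± 0.32 (adjusted p = 0.593).

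**Figure D5:**
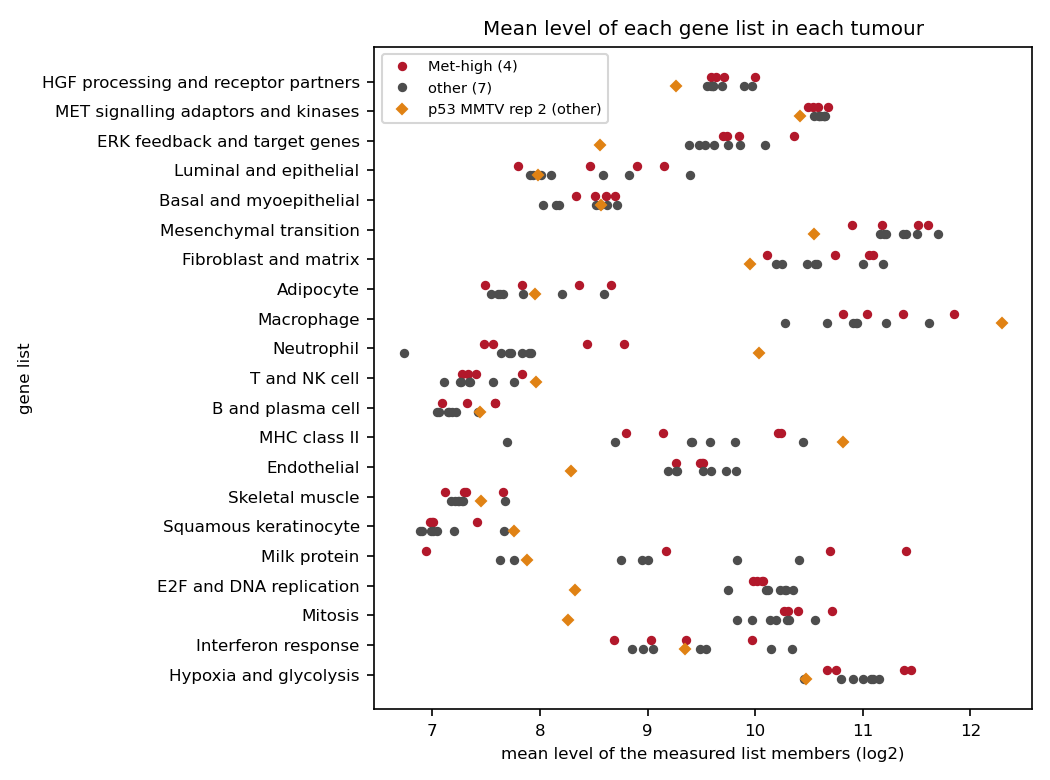
Mean level (log2) of the measured members of each of 21 gene lists, with 1 point per tumour: 4 Met-high, 7 other, and p53 MMTV-Cre replicate 2 as a diamond. Met-high and other tumours overlap in every list, and the diamond lies outside the 7 others for the macrophage (12.29), neutrophil (10.04), mitosis (8.26) and E2F lists (8.33), among others.

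The groups differed in transplant label and genotype, so the genes were also read with these labels as terms and within classes. With the transplant label as a term over 12 tumours, 1 gene outside the stretch around Met rose (0.00503%), Prl2c5, by 3.98 (limma adjusted p = 0.0308), and none fell, with 1032 higher and 1933 lower at an unadjusted p below 0.05. Differences kept their size for most named genes, such as 1.41 for Syt13, 1.72 for Wnt7b and -1.53 for Mgp, with adjusted p = 0.0994, 0.112 and 0.112. With genotype as a term 8 rose and 3 fell. Prl2c5 differed by 3.83 among the 7 transplants, where Rb/p53 Ad-Cre replicate 2 was the single Met-high tumour, by 4.08 among the 5 tumours without that label and by 4.29 among the 9 Rb/p53 tumours. Mgp differed by -1.83, -1.32 and -1.62 in these classes. Since both genes were called on these same tumours, the values are a description. Among the 5 tumours without the transplant label, p53 replicate 2 included, 4 genes that rose without that tumour had the opposite sign. These were Arhgap26, Eepd1, Galnt6 and Gpr141b, at -0.27, -0.53, -0.01 and -0.19. With p53 replicate 2 left out, they were at 0.82, 0.50, 0.83 and 0.85, against Rb/p53 MMTV-Cre replicate 1 alone.

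Among the 9 Rb/p53 tumours alone, with 2 Met-high against 7, 40 genes rose (0.201%) and 10 fell (0.0503%), and 40 of these 50 were called in neither fit over both genotypes. The following were named after their values were seen. Cck, the gene of the gut and brain peptide cholecystokinin, was at 11.92 and 10.68 in Rb/p53 Ad-Cre replicate 2 and Rb/p53 MMTV-Cre replicate 2, against 6.67 to 8.33 in the 7 others. In the Met-high p53 tumours it was at 6.94 and 6.75, no higher than in tumours with less Met. Tns4, a tensin of focal adhesions, was at 12.20 and 10.38 against 7.35 to 8.03, and the p53 tumours had 7.49 and 8.43.

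Il24, a cytokine gene, was at 9.72 and 9.42 in the same 2 Rb/p53 tumours against 6.01 to 7.14, with 7.97 and 6.25 in p53 replicates 1 and 3. Foxf1, a mesenchymal transcription factor, was at 8.50 and 8.35 against 10.07 to 11.49, with 10.55 and 8.21 in the Met-high p53 tumours and 8.60 in p53 replicate 2, the tumour with the lowest Met. Within Rb/p53 tumours Cck, Tns4 and Il24 rose by 4.18, 3.62 and 3.17 and Foxf1 fell by 2.37 (limma adjusted p = 0.0118, 0.0118, 0.00743 and 0.0402). Over all 12 tumours none of the 4 passed (adjusted p = 0.474 to 0.668). These calls depend on the label of p53 replicate 3: with it taken as Rb/p53, as its title has it, 13 genes rose and 7 fell, a setting chosen after the data were seen. Cck, Tns4 and Il24 were then not called (2.66, 2.67 and 2.06, adjusted p = 0.278, 0.175 and 0.263), and Foxf1 was (-2.44, adjusted p = 0.0174). Whether these differences depend on genotype was not tested, and the 2 tumours differ in Cre delivery and transplant label.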

How the data were processed

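Affymetrix Mouse Gene 1.0 ST arrays of 17 samples were analysed from the log2 values the authors deposited, made by RMA in Partek 5.6 per the submitters' processing notes; the genome build is not given in the sources used here. The arrays have 35556 probe sets, of which 21789 list 1 gene symbol, 1621 several and 12146 none here; for each symbol the probe set with the highest mean was kept, which left 19938 genes. By Entrez ID 21698 probe sets matched the RefSeq gene table of GRCm38.p6, which gave the order of neighbours. Array columns left unmapped numbered 0. The number of arrays limits the precision.

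Tumours with Met above 13 were compared with the rest in R 4.3.3 with limma 3.58.1 (lmFit, eBayes; two-sided, Benjamini-Hochberg adjusted over all genes, threshold 0.05), over 12 tumours and without p53 MMTV-Cre replicate 2. A difference is Met-high minus other, with its SE. The script was tested on simulated data.

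The tumours, members and gene lists were chosen with earlier results of these data known. Named were the 10 measured neighbours on each side of Met, up to 10 largest calls each way in each fit or, where fewer passed, the lowest p, the 2 largest differences of each list, and Yap1, Rb1 and Hgf; predicted genes and small RNAs were skipped for naming. Neighbours and list members beyond these were picked for the text after their values were seen, and not every gene the rule gives is printed. The rule also asked for genes correlated with Met; since Met levels fell into separate groups, no correlation is given. Alternatives were covariates, subsets of tumours, other normalisation, filters, probe-set rules and each tumour left out; those on 11 tumours and that with p53 replicate 3 among Rb/p53 tumours only were added after the data were seen.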

Additional observations from a re-analysis of the deposited data

Results flagged for a closer look

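Each group of 4 Met-high or 8 other tumours was checked for a tumour far from the rest, in 46 genes and thus 92 groups. In 25 groups the gap of the highest or lowest tumour to its neighbour exceeded the critical value of Dixon's test. For genes picked without regard to their levels, chance alone would flag about 1 in 20 groups. These genes were picked from calls in these same tumours and from Met and its neighbours. Some were called only without p53 replicate 2, so the number of flags cannot be set against that rate.

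In 17 of the 25 the tumour was p53 MMTV-Cre replicate 2, the array that correlated least with the others. It was far below the other 7 for Met (6.82), Cav1 (9.89), Cav2 (8.12), Lsm8 (8.99), Medag (8.42), P3h3 (8.96) and Prickle2 (7.06). It was far above them for Tfec (11.38), St7 (9.55), Asz1 (6.11), Cftr (6.96), Ankrd7 (5.74), Arhgap26 (10.52), Eepd1 (10.17), Galnt6 (8.83) and Gpr141b (8.32). Ppp1r3a was at 5.52 there.

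Among the Met-high tumours Rb/p53 Ad-Cre replicate 2 was far below the other 3 for Cav1 (11.23) and St7 (9.42). Rb/p53 MMTV-Cre replicate 2 was far below them for Cxcl12 (8.02) and P3h3 (8.87). For p53 MMTV-Cre replicate 1, Syt13 (10.38) was far above and Medag (9.74) far below the other 3, and Ppp1r3a was at 5.88. Among the other tumours Acap1 was far above the rest in Rb/p53 MMTV-Cre replicate 3 (8.49).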

How the results depend on the processing

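Named differences kept their direction under the alternatives run for each. The report gives the 4 genes that turn among tumours without the transplant label when p53 replicate 2 is among them. Of 28 alternatives Prl2c5 was called in 27, Syt13 in 24 and Mgp in 9. Wnt7b was called in 14 of them, Acap1 and Ppp1r14c in 13, Acsbg1 and Padi4 in 11, Itgb7 in 10 and Slc9a2 in 8. Rnf183 was called in 21 and Csf2 in 9 of 27. Over 12 tumours, where 12 genes rose and 1 fell, counts moved over 1.5 times as follows. With the transplant label as a term 1 rose and 0 fell; with genotype as well 2 and 0 (limma unadjusted p below 0.05: 1564 and 3495); with genotype alone 3 fell. In Rb/p53 tumours only 40 rose and 10 fell, and 7 fell with p53 replicate 3 counted among them; in tumours without the transplant label 0 and 0 (unadjusted 419 and 207). With normal tissue added as a group 25 rose and 5 fell; with the Met level as a continuous term 1647 and 3029, which became 2 and 3 without p53 replicate 2. Array weights gave 5 falls, repeated quantile normalisation 2, all probe sets 4 rises and 0 falls (unadjusted 691), and a difference of at least 1 gave 7 rises. Over 11 tumours, with 16 rises and 8 falls, genotype as a term gave 47 and 16 and the transplant label 0 and 1 (Mgp, with 806 unadjusted rises). Both p53 tumours left there were Met-high, so with the genotype term the differences are those among Rb/p53 tumours, 2 against 7. Leaving out 1 tumour gave 2 to 16 rises and 0 to 8 falls over 12 tumours, and 2 to 18 and 3 to 20 over 11. Rises numbered 2 without Rb/p53 Ad-Cre replicate 2, 3 without Rb/p53 Ad-Cre replicate 1 or Rb/p53 MMTV-Cre replicate 1 or 5, 4 without replicate 4 or 7, 5 without 6, 7 without 3, 6 without 2, and 6 without the p53 tumour numbered 1; falls were 8 without p53 replicate 2 and 0 without any other tumour. The cause of these moves was not tested. No paired analysis was possible because tumours share no animal or batch number across the groups.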
